A study of Mus musculus with 2 samples.

Results

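The expression of 9 genes of the S100 family, S100a1, S100a4, S100a6, S100a8, S100a9, S100a10, S100a11, S100a13 and S100a16, was described in the liver of fibrotic mice given TSG-6 or PBS. The genes came from a named list, and a probe was assigned to a gene when its accession on the array is a RefSeq transcript of that gene. All 9 genes were found, with 12 probes, among 20284 genes named on the array. Male C57BL/6 mice with liver fibrosis were injected in a vein with recombinant TSG-6 (a secreted protein that binds hyaluronan) or with PBS as the control, and fibrosis is common to both groups. The age of the mice and the way fibrosis was induced are not given in the sources used here. After 2 weeks, liver RNA from the 3 mice of a group was pooled equally and read on an Agilent array with a single dye. The series thus holds 2 arrays, 1 per group. No test could be made, no value has a replicate error, and array and group cannot be told apart.

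S100 proteins are small calcium sensors built from paired EF-hand loops. Most work as dimers that change shape on binding calcium and then grip other proteins inside the cell, among them annexins and cytoskeletal proteins. Several are also released from stressed or activated cells and act as danger signals through the receptors RAGE (gene Ager) and TLR4. In injured liver they are known mainly from neutrophils and monocytes (S100a8 and S100a9), from fibroblasts and macrophages (S100a4) and from bile duct and mesenchymal cells (S100a6, S100a11).

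Signals are the scanner software's processed intensities. A difference is the log2 signal relative to the array's own 75th percentile in the TSG-6 pool minus the same in the PBS pool; the percentile fell at a signal of 3158.5 for PBS and 2476.4 for TSG-6, so scaling adds 0.35 to each unscaled log2 difference. Every spot of the 9 genes was well above background on both arrays, none carried an outlier flag and none was saturated. The software's error for these spots was 10% of the signal, which gives 0.20 on the log2 scale for a difference between the arrays. Replicate spots of 327 other probes gave a pooled SD of 0.13 for the same difference. Both describe the spot and leave out the spread between mice. Of 15151 genes measured on both arrays, 7.23% differed at least 2-fold in either direction, with 4.29% lower and 2.94% higher in the TSG-6 pool. Of 14 listed hepatocyte markers, 10 were well above background in both pools. Ttr, Cps1 and Pck1 were left out for outlier flags, and Tf was not named on the array.

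None of the 9 S100 genes differed 2-fold between the pools. Their differences ran from -0.67 to 0.85 with a median of 0.06, beside a median of 0.08 over all measured genes, and the sign of the S100 median turned negative under 4 of 13 other settings, spike-in scaling among them (-0.29). In whole-liver RNA, a change in the number of cells of a type and in the RNA per cell cannot be told apart. The 9 genes did not differ alike. S100a4, S100a6 and S100a11 had less signal in the TSG-6 pool, S100a8, S100a1 and S100a13 had more, and the signs of these 6 genes held under all 13 other settings. S100a9, S100a10 and S100a16 differed by no more than 0.20, the size of the software's spot error, and their signs depended on the scaling. At 1.5-fold, a size chosen after the values were seen, 2 genes were lower (S100a6 and S100a11) and 1 was higher (S100a8), while 20.8% of all measured genes passed that size, 10.3% lower and 10.5% higher. Among the 4565 genes at least as bright on both arrays as the dimmest of the 9, the shares were 7.75% in all, 2.06% lower and 5.7% higher at 1.5-fold, and 1.14% in all, 0.35% lower and 0.789% higher at 2-fold. None of the 9 could fail this floor, while other genes that fell below it are left out of these shares.

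**Figure D1:**
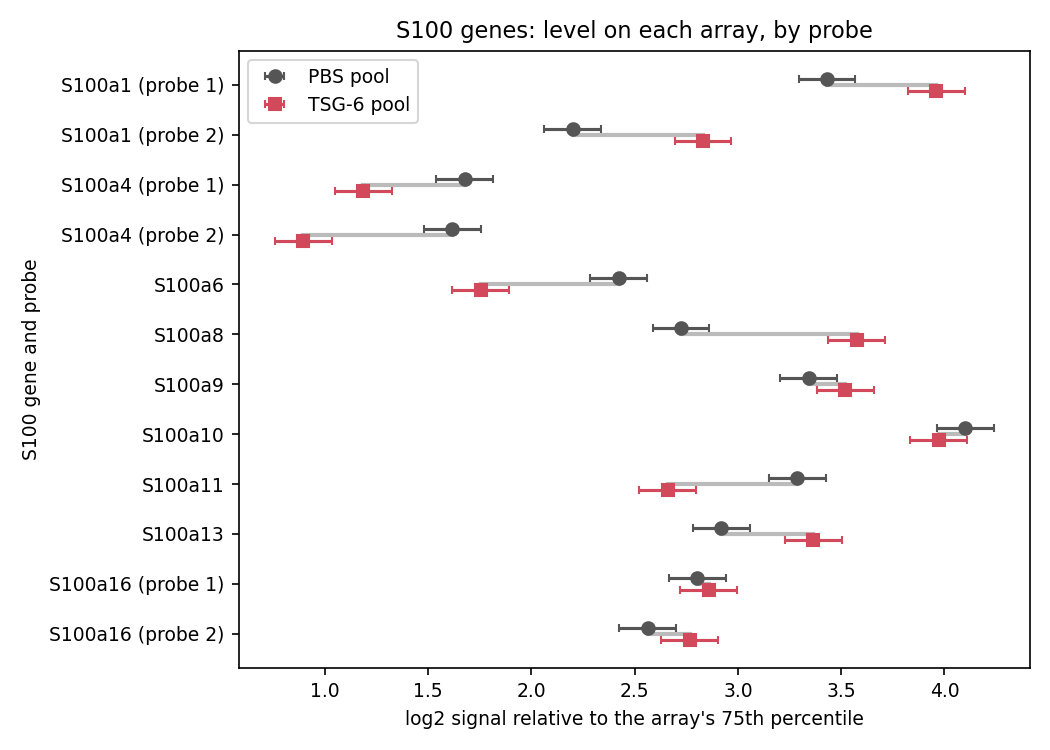
Level of each of the 12 probes of the 9 S100 genes on the 2 arrays, as log2 signal relative to the array's 75th percentile; circles are the PBS pool, squares the TSG-6 pool, and bars the software's error of 10% of the signal, which is no replicate error. The squares lie to the left of the circles for S100a4, S100a6 and S100a11 and to the right for S100a1, S100a8 and S100a13, directions that held under all 13 other settings. Levels of different probes are not comparable with each other.

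The genes with less signal in the TSG-6 pool encode intracellular S100 proteins that are also released. S100a6 encodes calcyclin, a protein of proliferating and mesenchymal cells. Its single probe read 16933 in the PBS pool and 8350.8 in the TSG-6 pool, a scaled difference of -0.67 (1.59-fold lower). S100a11 encodes calgizzarin, which binds annexin A1. Its probe read 30829.6 in the PBS pool and 15644.5 in the TSG-6 pool, a difference of -0.63 (1.54-fold lower). The RefSeq table also lists a pseudogene, S100a11-ps, and whether the S100a11 probe reads it was not tested. S100a4 encodes a protein long used as a marker of fibroblasts (fibroblast-specific protein) that macrophages make as well, and that binds the non-muscle myosin encoded by Myh9. Its brighter probe read 10104 in the PBS pool and 5637.2 in the TSG-6 pool, a difference of -0.49. Its other probe read 9684.2 and 4607.1, a difference of -0.72. Both probes of S100a4 were thus lower in the TSG-6 pool, the dimmer one by more.

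Against unscaled signals the same genes stood at or near 2-fold. The unscaled ratio of PBS to TSG-6 was 2.03 for S100a6 and 1.97 for S100a11. For S100a4 it was 1.79 with the brighter probe, the one used below, and 2.10 with the other. Under spike-in scaling, in which the arrays are set by control RNA added to each sample, S100a6 reached -1.01 and so passed 2-fold, while S100a11 stood at -0.97 and S100a4 at -0.84. With the percentile taken over spots without an outlier flag they stood at -0.38, -0.34 and -0.20. Those 2 settings move the median of all genes by -0.35 and 0.29, and array median scaling moves it by -0.11.

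Position among all measured genes does not depend on a constant scaling. Over all measured genes S100a6 lay at percentile 8.46, S100a11 at 9.29, S100a4 at 13.1 and S100a8 at 95.5. The bright genes were narrower in spread. Their floor, the level of S100a4 in the TSG-6 pool, had to be met on both arrays, which removes dim genes that fell below it. The floor was set by an S100 gene, so none of the 9 could fail it. It was set on scaled levels, so the make-up of the bright group, and positions in it, can change with the scaling. Among the 4565 bright genes, the central 95% of differences ran from -0.55 to 0.72, with a median of 0.14. In this group S100a6 lay at percentile 1.51, S100a11 at 1.82 and S100a4 at 3.04. S100a8 lay at percentile 98.6, S100a1 at 92.1 and S100a13 at 87.2. S100a9 (56.0), S100a16 (37.7) and S100a10 (17.0) lay in the body of the distribution. The genes were listed with earlier results of these arrays known, so these percentiles describe the 2 pools and test nothing.

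**Figure D2:**
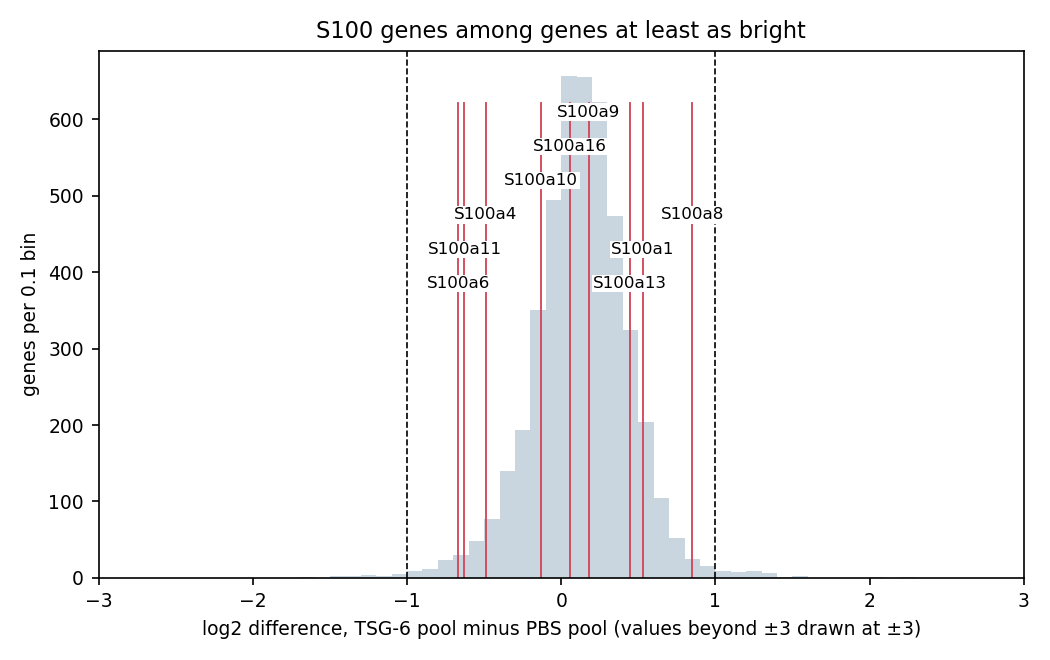
Histogram of the log2 difference (TSG-6 minus PBS) over 4565 genes at least as bright as the dimmest S100 gene on both arrays, in bins of 0.1, with a red line for each of the 9 S100 genes and dashed lines at 2-fold. S100a6 (-0.67) and S100a11 (-0.63) lie below the central 95% of these bright genes, which starts at -0.55, S100a4 (-0.49) lies inside it, S100a8 (0.85) lies above its end at 0.72, and no S100 gene passes a dashed line. The floor is the level of S100a4 in the TSG-6 pool, which none of the 9 could fail, while other genes that fell below it are left out. Over all measured genes S100a6 lay at percentile 8.46 and S100a11 at 9.29.

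S100a8 and S100a9 encode the subunits of calprotectin, the zinc- and manganese-binding complex that fills the cytosol of neutrophils and is released at sites of injury. The probe of S100a8 read 20871.9 in the PBS pool and 29503.2 in the TSG-6 pool, a difference of 0.85 (1.80-fold higher). The probe of S100a9 read 32032.3 in the PBS pool and 28396.1 in the TSG-6 pool, a difference of 0.18, which was -0.17 under spike-in scaling and below 0 under quantile and loess normalization too. Without scaling, the log2 difference was 0.50 for S100a8 and -0.17 for S100a9, the latter within the software's error of 0.20. At the reported setting both genes lay above 0. The difference of S100a8 exceeded that of S100a9 by 0.67, a 1.60-fold change of their ratio, with a software error of 0.29, and by 0.59 to 0.73 over all settings. S100a8 passed 2-fold under the percentile of unflagged spots alone, at 1.14. Each gene has 1 probe, so no other probe bears on this gap.

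Neutrophil genes differed by maturation stage in these pools. The list for early, primary granule precursors had a median of 3.54 over 6 measured genes, 5 of them at least 2-fold higher in the TSG-6 pool. Ms4a3 was 22.3-fold, Ctsg 15.6-fold, Mpo 14.8-fold and Elane 9.10-fold higher. Ms4a3 and Elane were dim in the PBS pool (141.4 and 113.7). With normexp background correction their log2 differences were 3.61 and 2.61, against 4.48 and 3.19 at the reported setting. Genes of secondary granules had a median of 0.69 over 7 genes, with 3 at least 2-fold higher, Ngp, Ltf and Camp. With flagged spots kept, Mmp8 of that list was 3.10-fold higher and the median was 1.16. Genes of mature neutrophils had a median of 0.22 over 11 genes and none at 2-fold, and that median was -0.13 under spike-in scaling. The summed signal of the mature list, in multiples of the array's 75th percentile, was 30.2 in the PBS pool and 37.4 in the TSG-6 pool, and Retnlg and Fpr2 of that list had only flagged spots. The sums were 4.99 and 16.3 for the primary list and 36.3 and 52.6 for the secondary list. Lcn2 weighs most in the secondary sums, with the highest log2 level of that list in both pools (4.69 and 4.92). In the mature sums Csf3r (3.64 and 4.08) and Trem1 (3.47 and 3.76) weigh most, with the highest log2 levels of that list in both pools. How far these lists account for the difference of S100a8 was not tested.

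Cell types known to express S100a4, S100a6 and S100a11 were read from their marker lists. Activated stellate cells lay down the collagen of scar. All 18 of their measured markers lay below 0 and 7 were at least 2-fold lower, with a median of -0.95 and sums of 79.8 in the PBS pool and 49.7 in the TSG-6 pool. With the percentile of unflagged spots that median was -0.66, and 15 of the 18 genes lay below 0 under all 13 other settings. Acta2, the smooth muscle actin, was 5.55-fold lower, Cthrc1 3.75-fold, Lox 3.11-fold and Des 2.35-fold. Cthrc1 and Lox were dim in the TSG-6 pool (71.2 and 157.6). With normexp their log2 differences were -1.17 and -1.18, against -1.91 and -1.64 at the reported setting. The other probe of Lox differed by only -0.43. Of 11 measured genes of monocytes and recruited macrophages, 8 lay below 0 and 2 were at least 2-fold lower, Itgax (-1.43) and Gpnmb (-1.32), with a median of -0.56 and sums of 79.1 and 74.1. Itgam weighs most in these sums, with the highest log2 level of that list in both pools (4.30 and 4.62). It differed by 0.33 with its brightest probe, but its 3 probes ran from -1.12 to 0.33. The flagged Lyz2 stood at 0.55 and Cd9 at -0.50 with flagged spots kept. Bile duct (cholangiocyte) markers had a median of -0.19 over 10 genes, none past 2-fold, with sums of 27.4 and 19.8, while Cftr was not well above background on either array. The median was 0.10 with the percentile of unflagged spots. Spp1 weighs most in these sums, with the highest log2 level of that list in both pools (3.83 and 3.01), and differed by -0.82. With flagged spots kept, Sox9 differed by -0.92 and Epcam by 0.16. Of the other lists, Kupffer cells had a median of 0.28 over 8 genes (sums 56.2 and 66.6, Timd4 2.39-fold higher), sinusoidal endothelium 0.23 over 8 (28.4 and 33.7) and lymphocytes -0.10 over 11 (6.64 and 6.52), and each of these medians took the other sign under spike-in scaling or the percentile of unflagged spots. The part of these cells in the S100 differences was not tested.

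**Figure D3:**
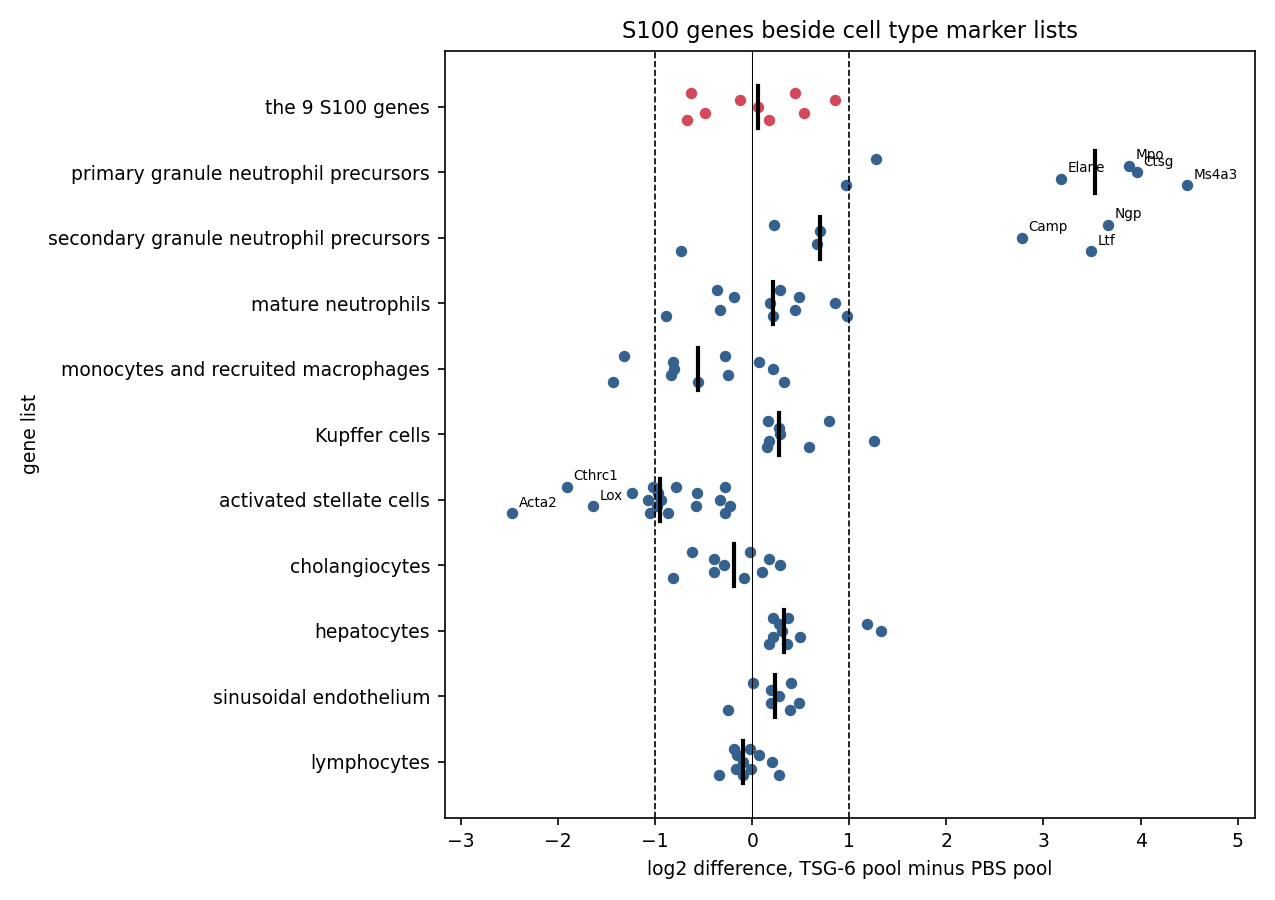
Log2 difference (TSG-6 minus PBS) of the 9 S100 genes (red) and of the measured genes of each cell type marker list (blue), 1 point per gene; the black bar is the list's median, dashed lines mark 2-fold, and genes beyond 1.5 on the log2 scale are named. The medians of the stellate cell list (-0.95) and of the primary granule precursor list (3.54) lie outside the range of the S100 genes, -0.67 to 0.85. Both medians kept their sign under all 13 other settings.

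S100a10 encodes p11, which does not need calcium and pairs with annexin A2 to hold plasminogen activator at the cell surface. Its probe read 54208 in the PBS pool and 38875.4 in the TSG-6 pool, a scaled difference of -0.13, which turned to 0.16 with the percentile of unflagged spots. Its partner Anxa2 read 39088.7 and 15395.3, a difference of -0.99 (1.99-fold lower), from -1.34 to -0.70 over the other settings. The 2 subunits of that complex therefore did not differ by the same amount. S100a10 and S100a11, parted on the chromosome by 1 listed entry that is not protein-coding, differed from each other by 0.50, from 0.35 to 0.50 over all settings.

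S100a1 encodes a protein best known from muscle, where it acts on the calcium pump and the calcium release channel. Its brighter probe read 34064.9 in the PBS pool and 38526.2 in the TSG-6 pool, a difference of 0.53, and its other probe read 14520.9 and 17622.8, a difference of 0.63. S100a13 encodes a protein that takes part in the release of FGF1 and interleukin-1 alpha. Its probe read 23899.8 and 25496.7, a difference of 0.44 (1.36-fold higher). Both genes kept a positive difference under spike-in scaling, at 0.18 for S100a1 and 0.10 for S100a13, both under the software's error. The hepatocyte list had a median of 0.33 over 10 genes, all above 0, with Glul 2.51-fold and Cyp2e1 2.27-fold higher and sums of 150.7 and 201.5; its median was -0.03 under quantile normalization and below 0 under spike-in scaling. Whether S100a1 and S100a13 follow the hepatocytes was not tested. S100a16, a widely expressed member, read 22043.9 and 17967.8 with its brighter probe (0.06) and 18653.9 and 16840.5 with the other (0.20), and its brighter probe was below 0 under 4 of the 13 settings.

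**Figure D4:**
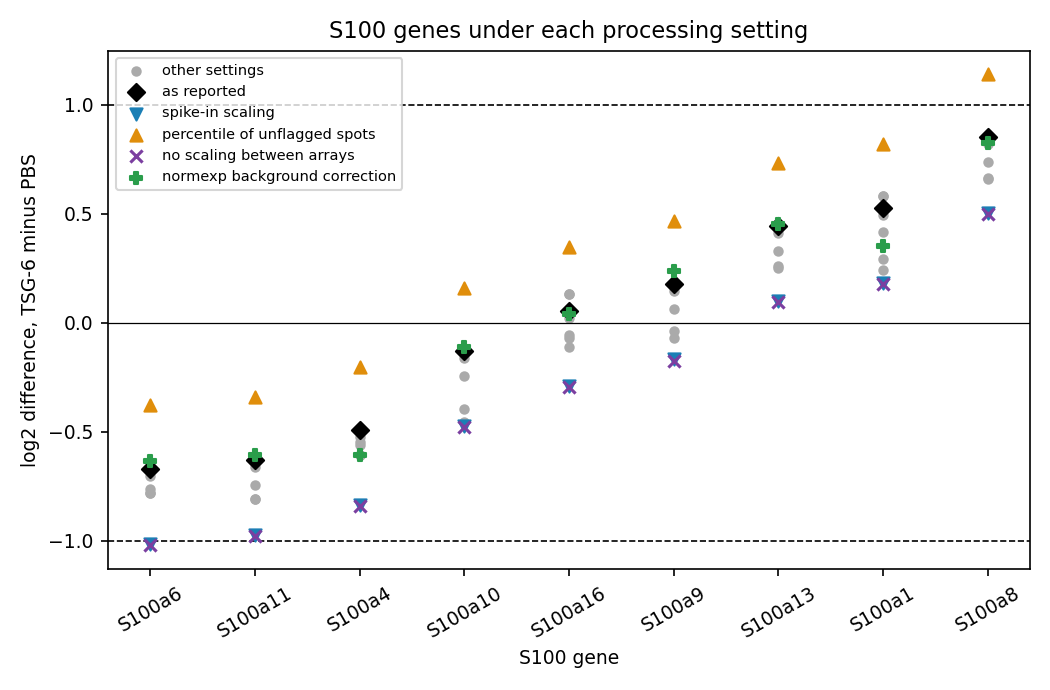
Log2 difference (TSG-6 minus PBS) of each S100 gene under each processing setting, 1 point per setting, with dashed lines at 2-fold; the reported value is the black diamond. A change of scaling moves all genes together, so that S100a9, S100a10 and S100a16 cross 0 (spike-in scaling puts S100a9 at -0.17, unflagged spots put S100a10 at 0.16), while S100a6 stays below and S100a8 above 0.

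All 9 genes lie on mouse chromosome 3 by the RefSeq table (assembly GRCm38.p6, used for names and order). There, S100a1 and S100a13 are direct neighbours on opposite strands, S100a4 and S100a6 stand on either side of S100a5, S100a8 is next to S100a9, and S100a11 and S100a10 stand together, parted from S100a7l2 by a gap that holds 54 protein-coding genes. S100a1 (0.53) and S100a13 (0.44) differed from each other by 0.08, and over all settings by -0.10 to 0.14. S100a3 (-2.73), S100a2 (-0.55, named after its value was seen), S100a4 (-0.49) and S100a6 (-0.67) stand together in the order, and all 4 were below 0 under all 13 other settings. S100a8 (0.85), next but one to S100a6 among the S100 genes, stood 1.52 above it, and by 1.43 to 1.52 over all settings.

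The bases just before the listed starts are shown for the genes on which these comparisons turn: S100a4, S100a6 and S100a11, lower together; the calprotectin pair, which came apart; and the stretch that S100a1 and S100a13 share. Sequences are from the RefSeq promoter table (GRCm38.p6), 150 bases up to the start, 5′ to 3′ on the gene's strand, and capitals mark matches to any of the motifs named after them. A promoter was listed for 8 of the 9 genes.
S100a4 (chr3:90603620-90603769, plus strand): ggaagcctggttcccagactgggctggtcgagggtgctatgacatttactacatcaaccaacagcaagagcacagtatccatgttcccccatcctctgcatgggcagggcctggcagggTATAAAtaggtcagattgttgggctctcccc
S100a6 (chr3:90612744-90612893, plus strand): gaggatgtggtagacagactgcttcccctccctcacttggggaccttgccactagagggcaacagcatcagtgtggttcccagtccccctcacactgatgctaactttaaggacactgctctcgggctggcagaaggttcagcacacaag
S100a11 (chr3:93520346-93520495, plus strand): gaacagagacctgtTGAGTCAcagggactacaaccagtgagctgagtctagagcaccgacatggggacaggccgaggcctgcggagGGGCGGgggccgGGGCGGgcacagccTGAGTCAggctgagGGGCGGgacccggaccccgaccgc
S100a8 (chr3:90668921-90669070, plus strand): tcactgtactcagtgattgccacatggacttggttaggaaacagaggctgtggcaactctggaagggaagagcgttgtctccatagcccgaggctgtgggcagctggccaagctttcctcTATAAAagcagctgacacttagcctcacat
S100a9 (chr3:90695722-90695871, minus strand): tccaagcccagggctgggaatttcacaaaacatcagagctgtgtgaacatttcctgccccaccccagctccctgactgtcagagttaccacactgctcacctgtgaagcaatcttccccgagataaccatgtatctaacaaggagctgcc
between the starts of S100a1 and S100a13 (chr3:90514331-90514434, plus strand, 104 bases): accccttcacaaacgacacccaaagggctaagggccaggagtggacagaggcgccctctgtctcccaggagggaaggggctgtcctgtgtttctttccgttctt

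The motifs were searched on both strands by their letters. The TATA box (TATAAA) was present in 2 of 9 windows listed for 8 of the S100 genes (S100a16 has a pair), those of S100a4 and S100a8, and in 7.57% of 32851 windows of the same length. In S100a4 it ends 26 bases before the start and in S100a8 25 bases before it, while the difference of S100a4 was negative and that of S100a8 positive. An AP-1 site (TGANTCA) stood in 1 window, that of S100a11, with 2 copies, against 4.24% of all windows, and the same promoter holds 3 GC boxes (GGGCGG, in 28.6% of all windows and in 1 other S100 window, that of S100a16). The window of S100a6 held none of the motifs, nor did that of S100a9. A C/EBP site (TTGCNNAA, 5.46% of all windows), a CCAAT box (24.5%) and a TEAD site (GGAATG, 7.59%) were in no S100 window of the 9, and a PU.1 or ETS site (GGAAGT, 13.6%) in 1, that of S100a1. S100a4, S100a6 and S100a11, alike in direction, therefore shared none of these motifs in their windows. S100a1 and S100a13 start 104 bases apart on opposite strands, so that the stretch shown lies upstream of both, and it held none of the motifs. No match says only that these letters are not in the window.

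The rest of the family was sparser in this liver and included the largest difference. Of 8 further listed S100 genes, 4 were measured in both pools, of which 2 passed 2-fold on the lower side and 0 on the higher, with a median of -1.37. With S100a2, which is not on that list, 5 of 9 were measured and the median was -0.55. S100g encodes calbindin-D9k, the vitamin D-responsive calcium carrier of the gut. Its brighter probe read 8204.8 in the PBS pool and 119.6 in the TSG-6 pool, a difference of -5.75 (53.8-fold lower), and its second probe read 5665.2 and 71.8, a difference of -5.95. Both probes of S100g stood well above background in both pools, and the gene had rank 3 from the lowest among 15151 measured genes. Its difference ran from -6.09 with spike-in scaling to -4.97 with normexp background correction. None of the 9 S100 genes differed by as much. Signals of single mice are not known from a pool.

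S100a3, a protein of the hair cuticle, read 531.5 in the PBS pool and 62.6 in the TSG-6 pool, a difference of -2.73 (6.66-fold lower), and -1.94 under normexp. S100b, the glial family member, read 98.6 and 123.9, a difference of 0.68, and S100a14 read 161.0 and 126.6, a difference of 0.00. S100a5 cleared the background in PBS alone, with signals of 54.9 and 19.5, which puts TSG-6 lower by at least 2.21-fold at the reported setting, while with normexp the difference was only -0.15 on the log2 scale. S100a7l2 likewise cleared it in PBS alone, with 42.4 and 8.2, lower by at least 1.79-fold at the reported setting and by a log2 difference of -0.16 with normexp. S100a7a and S100z were not well above background on either array. For S100g the window before the start is shown because it carried the largest difference of the family.
S100g (chrX:162964600-162964749, minus strand): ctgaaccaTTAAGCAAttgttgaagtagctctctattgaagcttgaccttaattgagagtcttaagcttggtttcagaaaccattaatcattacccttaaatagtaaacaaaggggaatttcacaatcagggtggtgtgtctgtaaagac
It held a C/EBP site, read on the other strand, and none of the other motifs.

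Most receptor genes for released S100 proteins stayed within 2-fold. Of 7 measured receptor and adaptor genes, 1 was at least 2-fold lower, Cd14, the co-receptor that hands ligands to TLR4, which read 12662.4 in the PBS pool and 4620.6 in the TSG-6 pool (2.15-fold lower; with normexp the log2 difference was -0.99). The median of the 7 was -0.02, and it was 0.27 with the percentile of unflagged spots. Ager, which encodes RAGE, read 103.5 and 67.3, a difference of -0.27 that was 0.02 with the percentile of unflagged spots. Tlr4 read 1321.6 and 788.6, a difference of -0.38. Bsg, which encodes basigin, a receptor for the S100A9 protein, read 27077.6 and 25033.5, a difference of 0.24 that was -0.11 under spike-in scaling. Cd36 and Alcam had only spots with an outlier flag.

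Among 18 measured intracellular partners no gene differed 2-fold by the probe used for it, and the median was 0.07, turning to -0.28 under spike-in scaling. Anxa2, at -0.99, was the lowest of them and Syt1, which joins S100a13 and FGF1 in their release, the highest at 0.59. Ahnak differed by -0.29, but its 3 measured probes ran from -1.04 to 0.22. Anxa1, the partner of S100a11, differed by -0.20 and Anxa6 and Anxa11, which bind S100a6, by 0.17 each. Myh9, the myosin bound by S100a4, differed by -0.03. Fgf1 differed by 0.26 and Il1a by -0.19, beside 0.44 for S100a13. Cacybp, the calcyclin-binding protein, was flagged and differed by -0.34 with flagged spots kept. Plat, the tissue plasminogen activator, was flagged too and differed by -2.15 (4.43-fold lower) with those spots kept, and the list's median was then -0.09. Of the 18 measured partners, 2 lay below 0 and 2 above 0 under all 13 other settings. The rest, Anxa1, Anxa6, Anxa11, Myh9, Fgf1 and Il1a among them, took the other sign under some settings. Of 6 other measured annexins 1 was at least 2-fold lower, Anxa3 (4.27-fold), with a median of -0.04. Of 23 other measured EF-hand genes, Cib3 (13.1-fold) and Cib2 (2.30-fold) were at least 2-fold higher and Ncs1 was 2.28-fold lower (with normexp a log2 difference of -0.69), with a median of 0.00. The medians of both lists moved to either side of 0 with the scaling. Of 3 measured genes of the fused S100 proteins of the epidermis none passed 2-fold, and their median was 0.65.

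**Figure D5:**
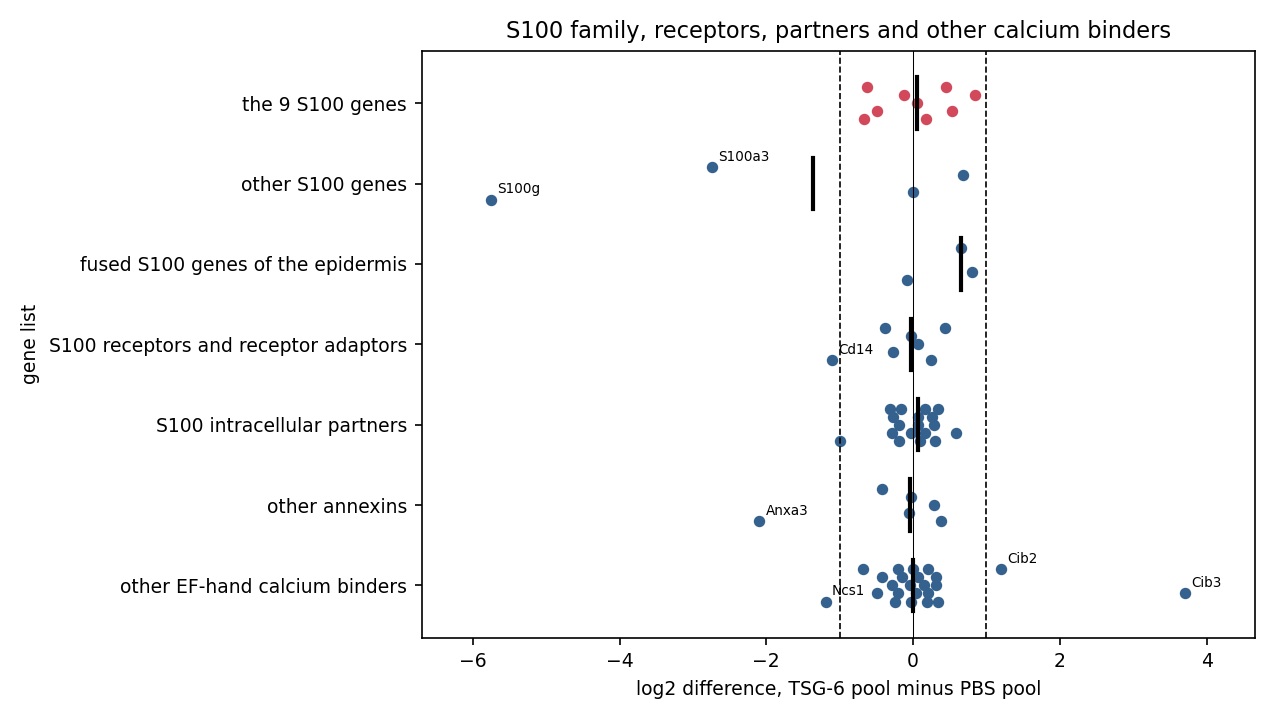
Log2 difference (TSG-6 minus PBS) of the 9 S100 genes (red) and of the measured genes of 6 related lists (blue), 1 point per gene; the black bar is the list's median, dashed lines mark 2-fold, and genes past 2-fold are named. S100g (-5.75) and S100a3 (-2.73) lie below the 9 S100 genes and Cib3 (3.71) above them, each with its sign kept under all 13 other settings.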

How the data were processed

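The deposited scanner files hold 1-colour Agilent signals as linear intensity, with background subtracted and a spatial trend removed, per the file headers, which name Agilent Feature Extraction 11.5.1.1 (10.7 per the submitters' processing notes). The deposited value table holds log2 values of the same arrays, equal to the log2 processed signal minus a constant per array, the medians being -3.90 (PBS) and -3.77 (TSG-6). Here, non-control spots without an outlier flag (flags: 3.40% and 6.44% of spots) were taken as log2 signal minus the 75th percentile of each array's non-control spots. Spots of a probe were averaged. For each gene the probe detected on more arrays, then the brighter, was used, where detected means well above background in at least 50% of spots. Accessions were matched to symbols through RefSeq (26762 of 55681 probes matched). Normexp used the median spot and background signals with an offset of 50. Size rules of 2-fold and 1.5-fold served in place of tests. A gene well above background on 1 array got a lower bound against the higher of its own dim value and the lowest detected signal. The named genes were the 9 members, the members of related lists past 2-fold (at most 4 each way) and any S100 gene, receptor or partner. Other list members were named only for a limit of their list, such as flags, dim signals or weight in a sum. The members and lists were chosen with earlier results of these data known. Steps were tested on simulated data. Tools were Python 3.11.15, pandas 2.3.3, numpy 2.4.6, matplotlib 3.10.9, R 4.3.3 and limma 3.58.1. The other settings were 13 fixed alternatives and 2 chosen after seeing the data. Precision is limited by the number of arrays, the pooling of mice and the choice of scaling.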

Additional observations from a re-analysis of the deposited data

How the results depend on the processing

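Of the 9 S100 genes, S100a1, S100a4, S100a6, S100a8, S100a11 and S100a13 kept their sign under all 13 fixed alternatives, and S100a9, S100a10 and S100a16 did not. S100a6 passed 2-fold under spike-in scaling (-1.01) and, in a setting chosen after seeing the data, with no scaling between arrays (-1.02), where the count of S100 genes at least 2-fold lower was 1 in place of 0. S100a8 passed it with the percentile of unflagged spots (1.14), where the count at least 2-fold higher was 1 in place of 0. A 1.5-fold rule, also chosen after seeing the data, gave 2 lower and 1 higher. Over all measured genes, 650 were at least 2-fold lower and 446 higher. The count lower was 402 under normexp, 1330 under spike-in scaling, 376 with unflagged spots and 1349 with no scaling. The count higher was 290 under normexp, 201 under spike-in scaling, 1018 with unflagged spots, 906 without the filter on dim probes (more genes counted) and 196 unscaled. Spike-in scaling, unflagged spots and no scaling move all differences by a constant; for normexp the cause was not tested. No paired analysis was possible because each group has 1 array. With 1 pool per group, the spread between mice is not known.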
